A study of Mus musculus with 8 samples.

Results

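The 34 genes described here belong to the interphase microtubule motors. They were kinesins that carry cargo or act on microtubules outside mitosis, subunits of cytoplasmic dynein and the numbered subunits of dynactin. The 34 are not the whole of these families: other kinesins, such as Kif1a, and other dynein and dynactin subunits are among the partners given further below. The 34 were chosen by gene symbol, and all were found among the 23356 genes measured. Of the 34, 31 reached at least 1 FPKM in at least 1 group of cells and are compared between groups below, against 11397 of all genes by the same limit. FPKM counts sequenced fragments corrected for transcript length and library size, so levels can be set side by side between genes of different length.

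RNA-seq had been performed on BMDCs, dendritic cells grown for 6 days from mouse bone marrow with GM-CSF and IL-4 at 10 ng/ml each. The 4 groups were control WT DCs, WT DCs with ansamitocin-P3 at 100 nM for 5 h, control GEF-H1-/- DCs, and GEF-H1-/- DCs with the same dose and time. The labels give a C57BL/6 background for all mice, which the study's methods specify as C57BL/6N, and the GEF-H1-/- cells carry the Arhgef2-/- genotype. Ansamitocin-P3 is a maytansine-type compound that binds tubulin and destabilizes microtubules, and GEF-H1, the product of Arhgef2, is a guanine nucleotide exchange factor for RhoA that is held on microtubules and released when they come apart. Each group had 2 libraries, and nothing in the labels says whether they came from separate mice or cultures. The deposited table holds 1 FPKM value per gene and group, with a 95% interval computed by Cuffdiff, and no values of single libraries. There is therefore no SD and no test against the spread between libraries for any value here, and differences are read against the Cuffdiff intervals. Total counts per library are unknown.

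Kinesins are motor proteins that mostly walk towards the plus ends of microtubules, away from the centrosome, and kinesin-1 carries many of its cargoes through a pair of light chains. Cytoplasmic dynein walks the other way, and needs the dynactin complex and an adaptor to move cargo over long distances. In dendritic cells these motors position endosomes, lysosomes and MHC class II compartments along microtubules, the structures that ansamitocin-P3 takes apart.

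Arhgef2 (chr3:88616207-88648052, mm10) stood at 42.3 FPKM (34.5 to 49.98) in control WT and 45.9 FPKM (36.9 to 54.9) in treated WT DCs. It stood at 4.59 FPKM (3.54 to 5.63) in control and 4.16 FPKM (3.22 to 5.11) in treated GEF-H1-/- DCs, with both intervals far below those of WT. All 10 dendritic cell markers examined passed the limit of 1 FPKM, with a summed FPKM of 5741 in WT controls, 7387 in treated WT DCs, 4876 in GEF-H1-/- controls and 5329 in treated GEF-H1-/- DCs. The 8 neutrophil markers found summed to more in each group, at 32544, 38453, 21963 and 22376 FPKM in the same order. Such sums depend on the level of each gene, so sums of different marker lists do not compare cell numbers. Macrophage markers, 9 of 10 passing, summed to 270.2, 203.8, 406 and 373 FPKM, the 7 mast cell and basophil markers to 198, 203, 384 and 368 FPKM, and lymphoid markers, 5 of 6 passing, to 13.9, 12.1, 9.38 and 8.22 FPKM. Of 5 neuron markers, the tubulin gene Tubb3 alone passed, and Rbfox3 was listed at 0 in every group. Between control GEF-H1-/- and control WT DCs, 6 of 7 mast cell and basophil markers and 4 of 9 macrophage markers were higher by over 0.5 on the log2 scale used below. By the same limit, of 8 neutrophil markers 4 were lower and 2 higher, and of 5 lymphoid markers 1 was lower. Of the 10 dendritic cell markers, 1 was higher and 2 were lower in control GEF-H1-/- DCs, with a median of -0.20. Of all genes, 4.19% were higher and 2.98% lower in this comparison. Between treated and control WT DCs, 5 of 9 macrophage markers were lower by over 0.5, 0 of 8 neutrophil markers passed 0.5, and of the 10 dendritic cell markers 2 were higher and 4 lower, with a median of 0.04. Of all genes, 12.4% were higher and 11% lower there. Between treated GEF-H1-/- and treated WT DCs, 6 of 9 macrophage and 5 of 7 mast cell and basophil markers were higher. Of 8 neutrophil markers 4 were lower and 2 higher, and of 10 dendritic cell markers 3 were higher and 3 lower. Of all genes, 9.6% were higher and 9.75% lower. The part of these marker differences in the values below was not tested. In such bulk RNA, fewer cells of one type and less RNA per cell cannot be told apart.

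The promoter sequences of 4 genes from 4 different motor assemblies are shown because these genes were higher by over 0.5 on the log2 scale in treated WT DCs, as described below. They are Klc1 (a kinesin-1 light chain), Kif1c (a kinesin-3), Dynlt3 (a dynein light chain) and Dctn2 (a dynactin subunit). Each run is the 250 bases before the RefSeq transcription start on GRCm38.p6, 5′ to 3′ on the strand of the gene: chr12:111758618-111758867 (+) for Klc1, chr11:70700298-70700547 (+) for Kif1c, chrX:9662984-9663233 (-) for Dynlt3 and chr10:127266012-127266261 (+) for Dctn2. Capitals mark a match to one of the motifs searched: the cyclic AMP response element in Klc1, the GC box, here on the reverse strand, in Kif1c, and the CCAAT box in Dctn2.
Klc1: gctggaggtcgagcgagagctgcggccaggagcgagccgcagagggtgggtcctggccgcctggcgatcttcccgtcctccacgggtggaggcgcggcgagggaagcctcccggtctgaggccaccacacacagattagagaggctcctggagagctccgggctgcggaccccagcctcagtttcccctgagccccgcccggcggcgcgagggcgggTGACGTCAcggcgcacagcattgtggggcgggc
Kif1c: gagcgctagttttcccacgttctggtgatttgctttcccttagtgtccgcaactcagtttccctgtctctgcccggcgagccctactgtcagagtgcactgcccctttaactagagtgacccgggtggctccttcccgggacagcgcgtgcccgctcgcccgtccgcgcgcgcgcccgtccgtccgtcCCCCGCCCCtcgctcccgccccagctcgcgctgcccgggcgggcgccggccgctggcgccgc
Dynlt3: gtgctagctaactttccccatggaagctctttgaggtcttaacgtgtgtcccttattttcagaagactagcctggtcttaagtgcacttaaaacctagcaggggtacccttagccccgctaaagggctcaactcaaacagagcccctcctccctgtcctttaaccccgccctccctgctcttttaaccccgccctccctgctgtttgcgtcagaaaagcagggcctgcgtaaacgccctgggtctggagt
Dctn2: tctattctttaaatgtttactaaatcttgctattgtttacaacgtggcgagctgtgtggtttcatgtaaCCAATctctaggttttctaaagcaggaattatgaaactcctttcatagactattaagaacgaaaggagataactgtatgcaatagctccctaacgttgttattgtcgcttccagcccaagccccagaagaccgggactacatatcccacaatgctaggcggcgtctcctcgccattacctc

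Promoter windows, from 250 bases before to 50 bases after the start, were given for 25 of the 34 motor genes, and motifs were searched on both strands. The cyclic AMP response element TGACGTCA was present in 3 of the 25, Klc1, Kif5c and Dctn3, against 2.03% of all genes with a window. In Klc1 it lay 33 to 26 bases before the start. Here all genes are the 27025 with a window, whether or not they passed 1 FPKM in these cells, unlike in the comparisons below. No share over expressed genes alone was computed, so no enrichment is read from these counts. The GC box GGGGCGGGG was present in 9 of 25 (12.9% of all genes) and the CCAAT box in 10 of 25 (41.1% of all genes). The AP-1 site TGANTCA was found in 0 of 25 (8.97% of all genes), and so were the NF-kappaB site (5.14% of all genes) and the CArG box (1.81% of all genes). The 4 promoters above do not share 1 of these motifs: Dynlt3 held none of them, and the others a different one each. Windows of 5 of the 7 genes that were higher by over 0.5 in treated WT DCs were available. The one not shown, Dync1i2, held none of these motifs. Of the 5, the cyclic AMP response element, the GC box and the CCAAT box were thus each in 1, and the other motifs in 0.

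The motor genes spanned more than 2 orders of magnitude in control WT DCs. Of the 34, 7 stood at 50 FPKM or more, 9 at 20 to 50, 9 at 5 to 20, 6 at 1 to 5 and 3 under 1 FPKM. Of the 7 at 50 FPKM or more, 6 were dynein light chains or dynactin subunits. Dynlrb1, a roadblock-type dynein light chain, had the highest level of the motor genes in every group, with 144 FPKM (105 to 169) in WT controls, 163 FPKM (119 to 191) in treated WT DCs, 140.5 FPKM (102 to 165) in GEF-H1-/- controls and 139 FPKM (102 to 165) in treated GEF-H1-/- DCs. In control WT DCs it stood above 95.3% of the genes that passed the filter. At the lower end, Kif9 stood at 0.332 to 0.692 FPKM and the kinesin-1 heavy chain Kif5c at 0.270 to 0.459 FPKM, both under 1 FPKM in each group. Dync1i1, the dynein intermediate chain best known from neurons, was listed at 0 in each group, and no fold is given for it. The genes nearest to the limit on the inside were Kifc3, with a highest group value of 1.51 FPKM, and Kif3c, with 1.94 FPKM. In the order of levels in control WT DCs, each gene's interval overlapped that of the next gene down, apart from Kif9 above Kif5c and Kif5c above the 0 of Dync1i1.

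**Figure D1:**
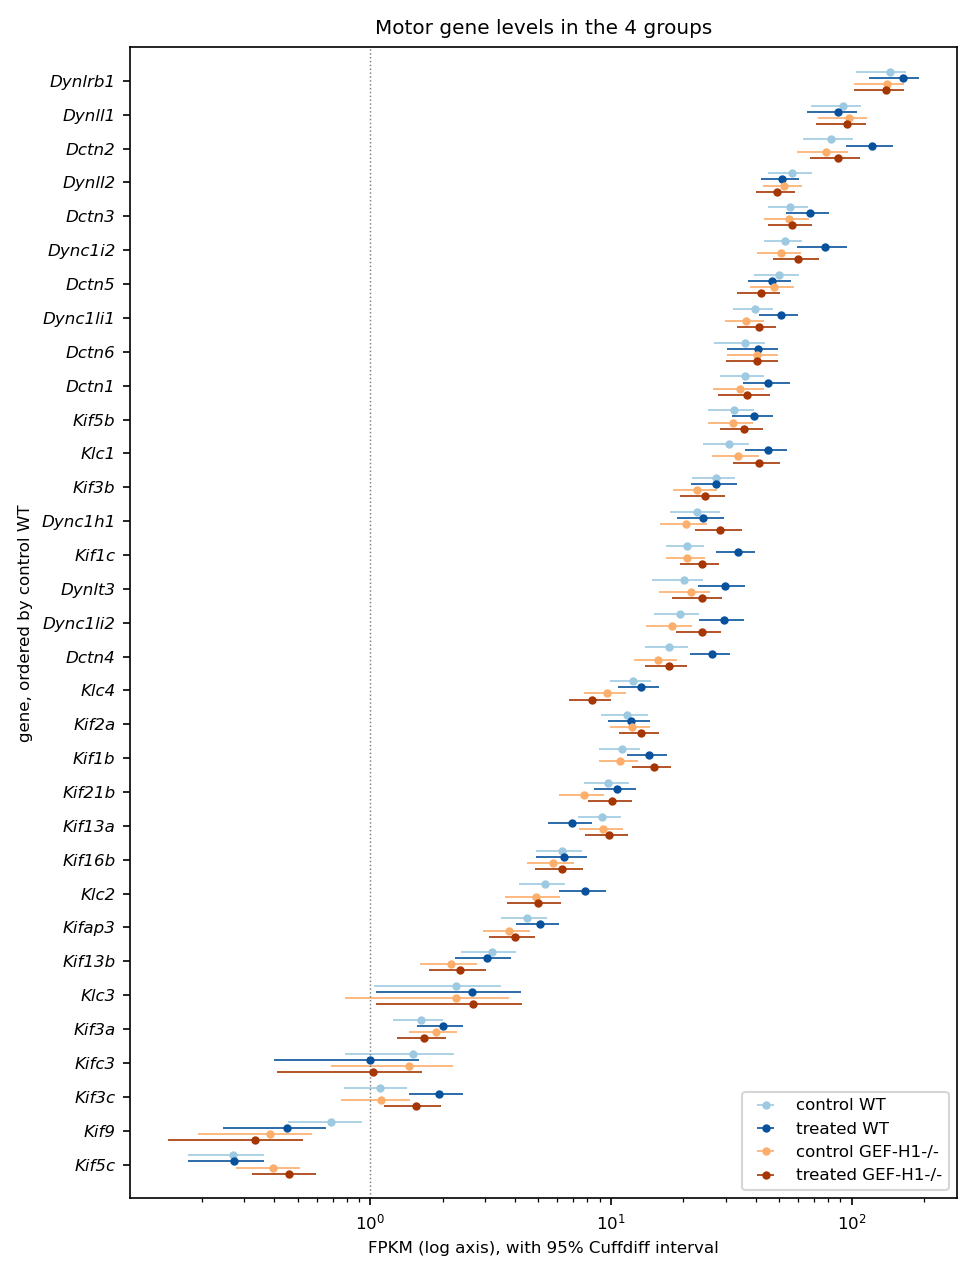
FPKM of 33 motor genes on a log axis (points) with the 95% Cuffdiff interval (lines), 1 row per gene in the order of control WT DCs, in the 4 groups; Dync1i1, listed at 0 in each group, is left out, and the dotted line marks 1 FPKM. Dynlrb1 is at the top at 139 to 163 FPKM and Kif5c at the bottom at 0.270 to 0.459 FPKM.

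Paralogs and subunits of the same motor differed in level. Kif5b (chr18:6201005-6241524), the ubiquitous heavy chain of kinesin-1, stood at 32.5 FPKM (25.4 to 39.2) in WT controls, 39.5 (31.8 to 47.1) in treated WT DCs, 32.2 (25.3 to 39.0) in GEF-H1-/- controls and 35.7 (28.4 to 42.8) in treated GEF-H1-/- DCs, above 76.6% of genes in control WT. Its FPKM was 120.1 times that of Kif5c in control WT and 77.9 times in treated GEF-H1-/- DCs. The 4 groups overlapped for Kif5b.

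Kif3a (chr11:53567379-53604244), a motor subunit of the heterotrimeric kinesin-2, stood at 1.63 FPKM (1.25 to 2.01), 2.003 (1.56 to 2.44), 1.88 (1.45 to 2.31) and 1.68 (1.295 to 2.07) in WT controls, treated WT DCs, GEF-H1-/- controls and treated GEF-H1-/- DCs, above 8.75% of genes in control WT. Its partner Kif3b stood at 22.9 to 27.5 FPKM, or 12.2 to 16.8 times Kif3a, and the accessory subunit Kifap3, which links kinesin-2 to cargo, at 3.77 to 5.07 FPKM. The subunits that form 1 complex thus had unequal transcript levels, in every group.

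Dync1h1 (chr12:110601395-110666944), the dynein heavy chain that holds the motor domain, stood at 22.9 FPKM (17.6 to 28.3) in WT controls, 24.1 (18.9 to 29.4) in treated WT DCs, 20.6 (16.0 to 25.2) in GEF-H1-/- controls and 28.5 (22.3 to 34.99) in treated GEF-H1-/- DCs. The intermediate chain Dync1i2, which binds dynactin, was at 2.30 times Dync1h1 in WT controls, 3.21 in treated WT DCs, 2.48 in GEF-H1-/- controls and 2.11 in treated GEF-H1-/- DCs. The heavy chain was highest in treated GEF-H1-/- DCs and the intermediate chain in treated WT DCs, with overlapping intervals in both cases.

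Dctn1 (chr6:83165924-83200118), the p150Glued arm of dynactin that contacts microtubules, stood at 36.0 FPKM (28.5 to 43.4), 45.2 (35.4 to 55.4), 34.4 (26.6 to 43.3) and 36.7 (28.0 to 46.0) in WT controls, treated WT DCs, GEF-H1-/- controls and treated GEF-H1-/- DCs. The ratio of Dctn2 to Dctn1 was 2.29 in control WT and 2.71 in treated WT DCs, and 2.27 and 2.39 in GEF-H1-/- DCs. Dynll1 (chr5:115297110-115300990), a dynein light chain that also binds many proteins outside the motor, stood at 91.8 FPKM (67.9 to 109) in WT controls, 87.8 (65.6 to 105) in treated WT DCs, 97.5 (72.3 to 116) in GEF-H1-/- controls and 96.2 (71.3 to 114) in treated GEF-H1-/- DCs. Of the 35-base words in the annotated transcripts of Dynll1, 6.49% also occur in other genes, the highest share among the motor genes (0% to 3.98% in the others), so part of its reads may be split.

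The response of WT DCs to ansamitocin-P3 was the first comparison of the design. Changes are given as the log2 ratio of FPKM + 1, which understates the change of low genes. Of the 31 motor genes, 7 (22.6%) were higher by over 0.5 in treated than in control WT DCs, where 12.4% of all genes were, and 0 were lower by over 0.5, where 11% of all genes were (with 0.1 in place of 1 FPKM added, 9 were higher and 1, Kifc3, lower). By any amount, 25 of 31 were higher (50.1% of all genes), and the median change was 0.18 for the motor genes and 0.00 for all genes. No motor gene passed 1 on this scale in either direction, against 3.66% of all genes higher and 1.28% lower by over 1. By over 0.25, 14 of 31 were higher (25.8% of all genes) and 2, Kif13a and Kifc3, lower (25.9% of all genes). The 7 genes belonged to 4 assemblies: Klc1 to kinesin-1, Kif1c to kinesin-3, Dync1i2, Dync1li2 and Dynlt3 to dynein, and Dctn2 and Dctn4 to dynactin. Their FPKM in treated WT was 1.45 (Klc1) to 1.62 (Kif1c) times that in control WT DCs. Klc1 at 0.53 was the gene just past the limit and Kif3c at 0.49 the one just short of it. Intervals in treated and control WT DCs did not overlap for 3 genes, Kif1c, Dctn4 and Kif3c, all higher in treated cells (9.68% of the 31, against 9.19% of all genes higher and 7.58% lower by this rule).

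Kif1c (chr11:70700548-70731970), a kinesin-3 that carries vesicles and integrins, had the largest log2 ratio of FPKM + 1 of the motor genes in WT DCs. By the plain ratio of FPKM, Kif3c (1.77) stood above Kif1c (1.62). Kif1c stood at 20.7 FPKM (16.9 to 24.5) in control WT and 33.6 FPKM (27.4 to 39.8) in treated WT DCs. Its log2 change was 0.67, with a propagated 95% interval of 0.31 to 1.03. In GEF-H1-/- DCs it stood at 20.8 FPKM (17.0 to 24.6) without and 23.9 FPKM (19.5 to 28.2) with the compound, a log2 change of 0.19 (-0.17 to 0.55). The interval of treated WT lay above those of both control groups and overlapped that of treated GEF-H1-/- DCs. Its close relative Kif1b, which carries mitochondria and synaptic vesicle precursors, stood at 11.1 and 14.4 FPKM in control and treated WT and at 10.9 and 15.1 FPKM in control and treated GEF-H1-/- DCs, so that the ratio of Kif1c to Kif1b was 2.33 in treated WT against 1.58 in treated GEF-H1-/- DCs.

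Among the kinesin-1 light chains, which bind cargo, Klc1 (chr12:111758849-111813841) stood at 30.8 FPKM (24.2 to 37.5) in WT controls, 44.9 (36.0 to 53.7) in treated WT DCs, 33.7 (26.2 to 41.3) in GEF-H1-/- controls and 41.2 (32.1 to 50.3) in treated GEF-H1-/- DCs. It was higher with the compound in both genotypes, by 0.53 in WT against 0.28 in GEF-H1-/- DCs, with overlapping intervals. Klc2 (chr19:5107746-5118408) stood at 5.32 FPKM (4.17 to 6.46), 7.84 (6.11 to 9.58), 4.88 (3.62 to 6.15) and 4.96 (3.69 to 6.24) in the same order, so treated WT stood above the other 3 groups, which were close to each other, with intervals that still overlapped. Klc4 (chr17:46630631-46645144) stood at 12.3 FPKM (9.88 to 14.7), 13.3 (10.7 to 15.9), 9.66 (7.71 to 11.6) and 8.36 (6.68 to 10.1), and here the genotypes differed more than treatment did. Klc3 stood at 2.27 to 2.67 FPKM with the widest interval of the motor genes, 108% of its FPKM in control WT DCs.

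In kinesin-2, Kif3c (chr12:3365132-3426747) stood at 1.10 FPKM (0.776 to 1.42) in WT controls, 1.94 (1.45 to 2.43) in treated WT DCs, 1.11 (0.757 to 1.46) in GEF-H1-/- controls and 1.56 (1.14 to 1.97) in treated GEF-H1-/- DCs. Its FPKM was 1.77 times as high in treated as in control WT DCs, and the added 1 FPKM brings that to 0.49 on the log2 scale. The other kinesin-2 genes, Kif3a, Kif3b and Kifap3, changed by 0.01 to 0.19 in WT DCs. The remaining kinesins were Kif13a and Kif13b, Kif16b, which moves early endosomes, Kif2a, a microtubule depolymerase, Kif21b, which acts on microtubule growth, and Kifc3, which walks towards minus ends. They lay between -0.36 (Kif13a) and 0.10 (Kif21b) in WT DCs. Kif13a, which moves recycling endosomes and melanosome cargo, was the lowest of all motor genes by this measure, with 9.17 FPKM in control and 6.90 FPKM in treated WT against 9.31 and 9.82 FPKM in GEF-H1-/- DCs.

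Of the dynein chains, Dync1i2 (chr2:71211706-71263302) stood at 52.7 FPKM (43.2 to 62.3) in WT controls, 77.5 (59.7 to 95.7) in treated WT DCs, 51.1 (40.5 to 61.7) in GEF-H1-/- controls and 60.1 (47.3 to 73.1) in treated GEF-H1-/- DCs. Dync1li2 (chr8:104417674-104443047), a light intermediate chain that binds cargo adaptors, stood at 19.4 FPKM (15.1 to 23.3), 29.5 (23.3 to 35.7), 18.0 (14.0 to 21.7) and 23.9 (18.7 to 28.8) in the same order. Both were highest in treated WT DCs and next highest in treated GEF-H1-/- DCs, and the treated and control intervals overlapped, for Dync1li2 only just. The other light intermediate chain, Dync1li1, changed by 0.34 in WT against 0.17 in GEF-H1-/- DCs.

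Dynlt3 (chrX:9654270-9662983), a Tctex-type light chain, stood at 20.1 FPKM (14.8 to 24.2) in WT controls, 29.7 (23.0 to 36.0) in treated WT DCs, 21.5 (15.8 to 25.8) in GEF-H1-/- controls and 23.9 (17.9 to 29.1) in treated GEF-H1-/- DCs. The other light chains, Dynll1, Dynll2 and Dynlrb1, changed by -0.14 to 0.18 in WT DCs. The light chains thus did not move as a set: 1 of 4 passed 0.5 and 2 of 4 were lower with the compound.

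Dynactin showed 5 of 6 subunits above 0 in WT DCs, with Dctn5 the exception at -0.10. Dctn2 (chr10:127266262-127288771), the dynamitin subunit of the shoulder, stood at 82.2 FPKM (62.9 to 102) in WT controls, 122 (95.1 to 149) in treated WT DCs, 78.1 (59.5 to 96.9) in GEF-H1-/- controls and 87.8 (67.3 to 108) in treated GEF-H1-/- DCs. Dctn4 (chr18:60526221-60558762), the p62 subunit of the pointed end, stood at 17.5 FPKM (13.9 to 21.0), 26.4 (21.4 to 31.4), 15.7 (12.5 to 18.8) and 17.4 (13.9 to 20.8) in the same order, and its interval in treated WT lay above those of the other 3 groups. Of the pointed-end and shoulder subunits that did not pass 0.5, Dctn3 changed by 0.27 and Dctn6 by 0.17 in WT DCs.

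**Figure D2:**
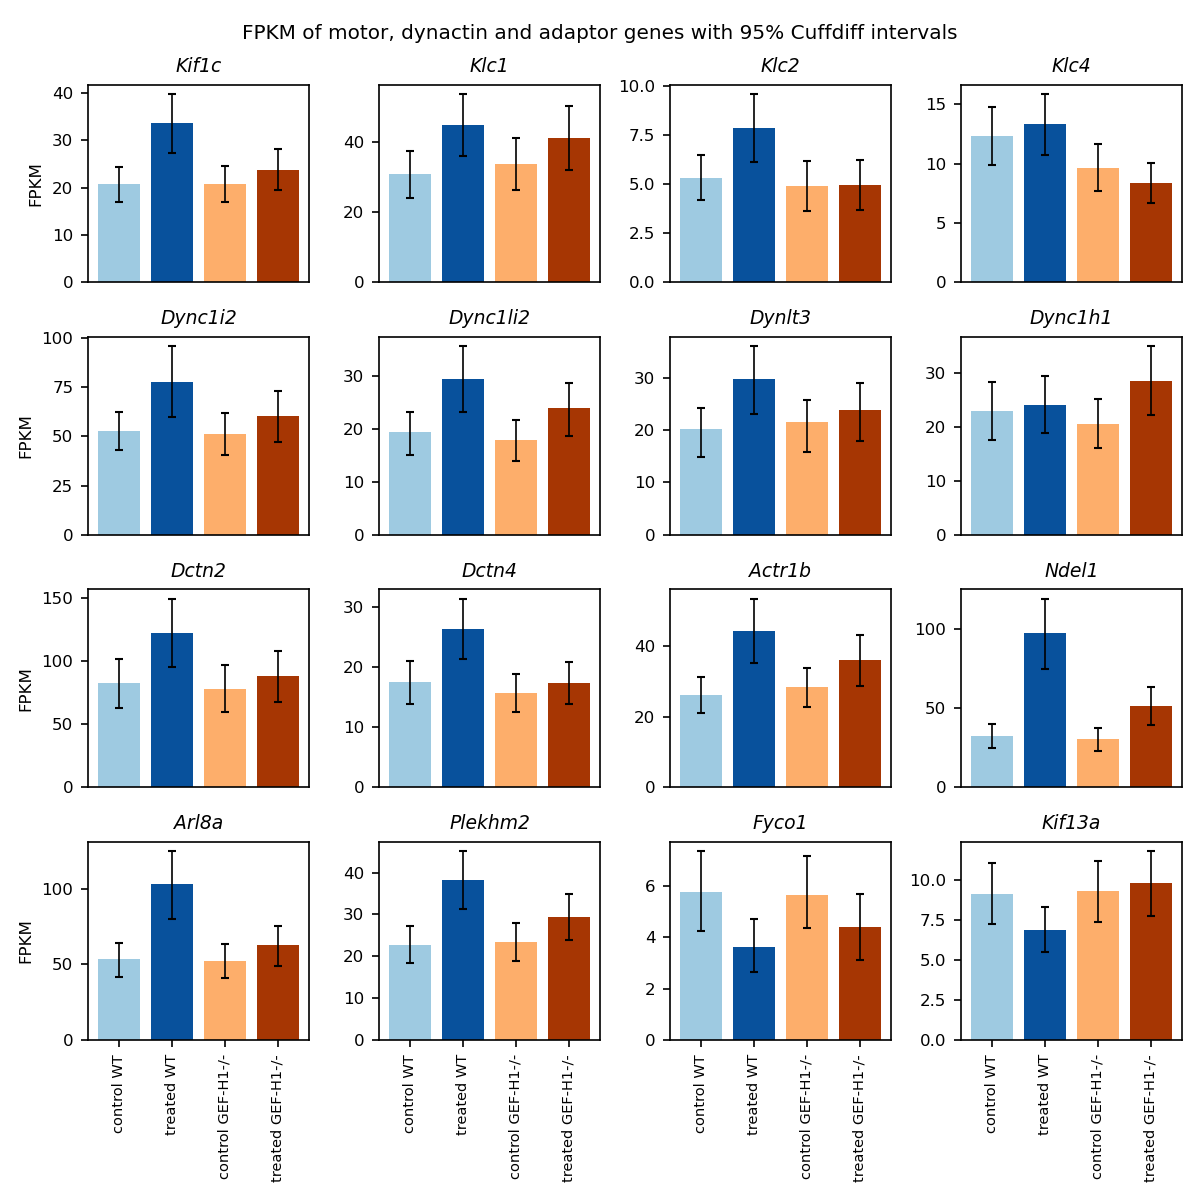
FPKM (bars, from 0) with 95% Cuffdiff intervals (lines) in the 4 groups for 11 motor genes and 5 genes of dynactin, dynein regulation and cargo adaptors, with a separate axis for each gene. Treated WT is the tallest bar for Kif1c, Klc2, Dctn4 and Ndel1, among others, whereas Dync1h1 is tallest in treated GEF-H1-/- DCs at 28.5 FPKM and Kif13a and Fyco1 are lowest in treated WT DCs.

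In GEF-H1-/- DCs, treated against control, 0 of the 31 motor genes passed 0.5 in either direction, where 3.85% of all genes were higher and 1.94% lower by over 0.5. Fewer of all genes passed this limit than in WT DCs. Of the 31, 23 were above 0 (47.6% of all genes), with a median of 0.10 against -0.01 for all genes, and the values ran from -0.27 (Kifc3) to 0.45 (Dync1h1). Over 0.25 were 6 genes, 19.4% of the 31 against 11.8% of all genes: Klc1, Kif3c, Kif1b, Kif21b, Dync1h1 and Dync1li2. The treated and control intervals of each motor gene overlapped in this genotype (2.75% of all genes were higher and 0.956% lower with intervals apart). Dync1h1 changed by 0.45 (0.02 to 0.89) in GEF-H1-/- against 0.07 (-0.37 to 0.52) in WT DCs, and Kif1b by 0.43 (0.07 to 0.78) against 0.35 (-0.01 to 0.72). These were the only 2 of the 31 whose propagated interval left out 0 in GEF-H1-/- DCs, where 8.97% of all genes did. In WT DCs, 9 of the 31 did, against 30.1% of all genes. By this rule the motor genes did not stand out from all genes in either genotype.

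**Figure D3:**
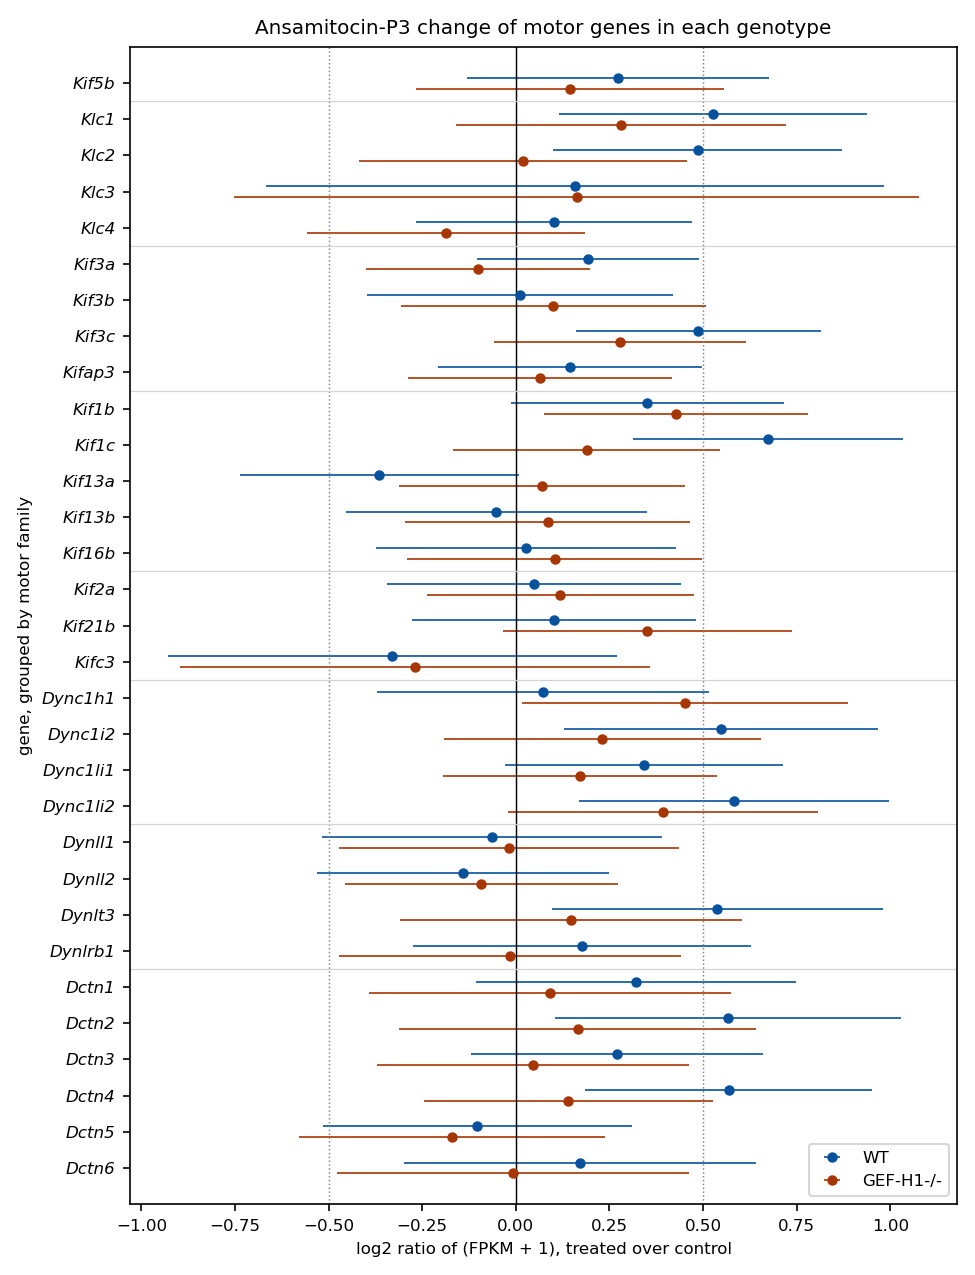
Log2 ratio of FPKM + 1, treated over control, for the 31 motor genes with at least 1 FPKM in a group, in WT (blue) and GEF-H1-/- DCs (brown), with 95% intervals propagated from the Cuffdiff intervals; grey lines divide the motor families and dotted lines mark 0.5 and -0.5. In WT, 7 genes pass 0.5, with Kif1c the highest at 0.67, and in GEF-H1-/- DCs none does, with Dync1h1 the highest at 0.45; the intervals of the genotypes overlap for each gene.

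The 7 genes past 0.5 in WT DCs had changes of 0.14 (Dctn4) to 0.39 (Dync1li2) in GEF-H1-/- DCs, and had medians of 0.57 in WT against 0.19 in GEF-H1-/- DCs. These 7 were picked by their WT values, which by itself favours a lower value in the other genotype. Over all 31, 19 had the larger value in WT and 12 in GEF-H1-/- DCs (51.6% of all genes had the larger value in WT), and the median difference between the genotypes was 0.17, against 0.01 for all genes. No motor gene differed between genotypes by over 0.5 (6.73% of all genes higher and 5.24% lower), and for none did the propagated interval of the difference leave out 0 (4.77% and 3.52% of all genes). The largest difference was that of Kif1c, 0.48 (-0.02 to 0.99), followed by Klc2 with 0.47 (-0.12 to 1.049). The median half-width of that interval was 0.58, so a difference of the size seen here was not detectable for a single gene with these intervals.

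By family, the difference was above 0 for all 6 dynactin subunits, from 0.07 (Dctn5) to 0.43 (Dctn4), and for 3 of 4 kinesin light chains. For all genes that share was 51.6%, and the propagated interval of each of these genes included 0. Of the 10 other dynactin and dynein subunits described below, 9 were above 0 as well. The difference was above 0 for 1 of the 5 kinesin-3 genes among the motor genes, Kif1c. It was below 0 for all 3 of the other kinesins that passed the filter, Kif2a, Kif21b and Kifc3. Dync1h1 at -0.38 and Kif13a at -0.43 had the most negative values. In both genotypes, 21 of 31 genes were above 0 and 4, Kifc3, Dynll1, Dynll2 and Dctn5, below 0. Signs differed for the other 6, of which Kif13a was the widest apart. Across the 31 genes, the changes in WT and in GEF-H1-/- DCs had a Spearman rho of 0.57 and a Pearson r of 0.52. This describes genes that share the same 4 groups of libraries and are not independent replicates. Neither these counts of shared signs nor the correlations were computed over all genes, so they are not read as particular to the motor genes.

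The next comparison was that of the genotypes without the compound. Between control GEF-H1-/- and control WT DCs, 0 of 31 passed 0.5 (4.19% of all genes higher and 2.98% lower), no intervals were apart (2.86% and 1.88% of all genes), and the median was -0.05 against -0.01 for all genes. Values ran from -0.40 (Kif13b) to 0.17 (Dctn6). Kif13b stood at 3.21 FPKM (2.38 to 4.04) in control WT and 2.18 FPKM (1.61 to 2.79) in control GEF-H1-/- DCs. The propagated interval of its log2 ratio, -0.80 to -0.01, left out 0, though only just. Klc4, Kif13b and Kif21b were lower by over 0.25 in control GEF-H1-/- DCs (9.68% of the 31 against 11.2% of all genes), and 0 were higher by over 0.25 (11.8% of all genes). By any amount 21 of 31 were lower, against 52.1% of all genes.

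With the compound, 3 of 31 motor genes were lower by over 0.5 in GEF-H1-/- than in WT DCs, 9.68% against 9.75% of all genes, and 0 were higher, against 9.6% of all genes (with 0.1 FPKM added, 3 were lower and 1, Kif13a, higher). The 3 were Klc4 (-0.61, -0.98 to -0.24), Dctn4 (-0.58, -0.96 to -0.20) and Klc2 (-0.57, -0.99 to -0.15). Intervals were apart for Klc4 and Dctn4, both lower, or 6.45% of the 31 against 6.73% of all genes (7.02% of all genes were higher by this rule). Between the control groups, Dctn4 and Klc2 stood at -0.15 and -0.10, while Klc4 was already at -0.32 there. The propagated interval of the difference between genotypes in the change included 0 for Dctn4 (-0.12 to 0.97) and Klc2 (-0.12 to 1.049). By any amount, 24 of 31 were lower in GEF-H1-/- DCs (52.9% of all genes), and the median was -0.16 against -0.03. This comparison uses the same treated WT libraries as that within WT DCs, so these comparisons are not separate evidence.

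Summed over all 34 motor genes, FPKM was 917 in WT controls, 1096 in treated WT DCs, 893 in GEF-H1-/- controls and 951 in treated GEF-H1-/- DCs. The sum of dynactin subunits was 277 FPKM in WT controls against 348 FPKM with the compound, and 272 against 281 FPKM in GEF-H1-/- DCs. That of the dynein heavy, intermediate and light intermediate chains was 135 against 182 FPKM in WT DCs, and 126 against 154 FPKM without GEF-H1. The sum of dynein light chains was nearly level, at 313 and 332 FPKM in WT and 312 and 308 FPKM in GEF-H1-/- DCs. FPKM over all genes with a usable value did not sum to a common total either, at 604772, 734144, 594706 and 612810 in the 4 groups, with treated WT again the highest. The higher sum of motor genes in treated WT DCs is therefore not read as particular to the motor genes. Factors that bring the groups to the same median ratio were all close to 1, from 0.992 to 1.006.

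The partners of these motors were drawn from 5 lists of other dynein and dynactin subunits, dynein activators, kinesin cargo adaptors, other interphase kinesins and ciliary dynein, with 61 of 65 genes found and 41 passing 1 FPKM. In treated against control WT DCs, 4 of 41 were higher by over 0.5 (Ndel1, Arl8a, Actr1b and Plekhm2) and 2 lower (Fyco1, which links late endosomes to kinesin-1, and Kif24), where 12.4% and 11% of all genes were, and the median was 0.20. The partners were thus called no more often than all genes. Without GEF-H1, 1 gene, Ndel1, was higher (3.85% of all genes) and 0 were lower (1.94% of all genes), and the median was 0.01. Intervals were apart for the 4 higher genes and for Kif24 in WT, and for Ndel1 in GEF-H1-/- DCs.

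Ndel1 (chr11:68821446-68853131), which with Lis1 regulates dynein, had the largest change of these partners. It stood at 32.3 FPKM (24.8 to 39.8) in WT controls, 97.6 (75.2 to 119.5) in treated WT DCs, 30.3 (23.1 to 37.4) in GEF-H1-/- controls and 51.8 (39.5 to 63.7) in treated GEF-H1-/- DCs. The treated intervals lay above the control intervals in each genotype, and that of treated WT above that of treated GEF-H1-/- DCs. The difference between the genotypes in the change was 0.81 (0.16 to 1.47). Pafah1b1, which encodes Lis1, changed by 0.44 in WT against 0.27 in GEF-H1-/- DCs, and Nde1, the paralog of Ndel1, by 0.21 and 0.11.

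Arl8a (chr1:135146834-135156268), a small GTPase that couples lysosomes to kinesin, stood at 53.1 FPKM (41.5 to 64.2) in WT controls, 103 (79.8 to 125) in treated WT DCs, 52.2 (40.7 to 63.1) in GEF-H1-/- controls and 62.7 (49.0 to 75.5) in treated GEF-H1-/- DCs, a difference between genotypes of 0.68 (0.07 to 1.29). Plekhm2 (chr4:141625734-141664115), the SKIP protein that joins Arl8 to kinesin-1, stood at 22.8 FPKM (18.4 to 27.2), 38.2 (31.2 to 45.2), 23.4 (18.9 to 28.0) and 29.4 (23.9 to 34.97). Arl8a and Plekhm2 were higher in treated than in control WT DCs with intervals apart. Arl8b, the paralog of Arl8a, had a value of -0.37 in WT against -0.11 in GEF-H1-/- DCs. Of the 13 kinesin cargo adaptors that passed the filter, these 2 were higher by over 0.5 in WT DCs and 1 was lower. That compares with 12.4% and 11% of all genes, and the median of the 13 was 0.11.

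The actin-related and capping subunits of dynactin were listed apart from the numbered ones. Actr1b (chr1:36699202-36709925), which encodes a filament subunit, stood at 26.1 FPKM (21.0 to 31.2), 44.4 (35.3 to 53.6), 28.3 (22.8 to 33.9) and 36.0 (28.8 to 43.2) in WT controls, treated WT DCs, GEF-H1-/- controls and treated GEF-H1-/- DCs. Its paralog Actr1a changed by 0.36 in WT against 0.05 in GEF-H1-/- DCs, Actr10 by 0.38 and 0.04, and Capzb, which also caps actin filaments, by 0.40 and -0.02. The other capping subunits showed smaller values, with 0.20 and 0.07 for Capza1 and 0.04 and 0.00 for Capza2. Dynlt1a, Dynlt1b, Dynlt1c and Dynlt1f stood at 0.11 to 4.36 FPKM, and since they are near-identical copies their values are uncertain. Kif24 (chr4:41390748-41464848), a kinesin that acts on microtubules at the centriole, stood at 1.86 FPKM (1.45 to 2.27) and 0.945 FPKM (0.696 to 1.19) in control and treated WT and at 1.63 (1.26 to 2.002) and 1.57 (1.21 to 1.93) in GEF-H1-/- DCs. Kif1a, a kinesin-3 gene outside the motor genes counted above, stood at 2.52 and 1.55 FPKM in control and treated WT DCs. In control and treated GEF-H1-/- DCs it stood at 1.52 and 1.29 FPKM. Its log2 change was -0.46 (-0.81 to -0.12) in WT and -0.14 (-0.50 to 0.22) in GEF-H1-/- DCs.

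Kinesins of mitosis and the tubulins were set beside the interphase motors for contrast. Of 14 mitotic kinesins, 1 was above 0 in WT DCs (25 of 31 for the interphase motors), with a median of -0.17 against 0.18, and in GEF-H1-/- DCs the medians were 0.02 and 0.10. Kif23, which acts in the central spindle, had the lowest value in WT, -0.56, with 23.6 FPKM (19.3 to 27.9) in control and 15.7 FPKM (12.8 to 18.7) in treated DCs, and Kif2c, a microtubule depolymerase, the highest, 0.02. The 12 tubulins had higher values as a group, with medians of 1.22 in WT against 1.304 in GEF-H1-/- DCs. Tuba1a had the highest value in WT, 2.89, with 33.2 FPKM (26.5 to 39.7) in control and 252 FPKM (201 to 302) in treated DCs, against 31.1 and 168 FPKM in GEF-H1-/- DCs. Tubg1, the gamma-tubulin of the centrosome, had the lowest, with -0.40 in WT against -0.21 in GEF-H1-/- DCs.

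**Figure D4:**
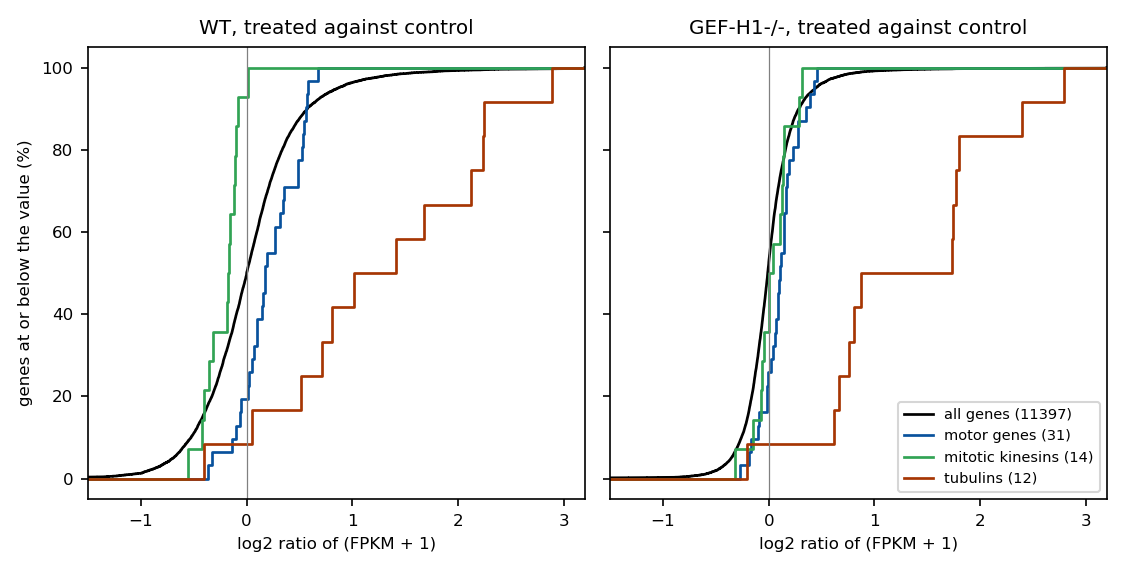
Cumulative share of genes (%) at or below each log2 ratio of FPKM + 1, treated over control, in WT (left) and GEF-H1-/- DCs (right), for all 11397 genes, the 31 motor genes, 14 mitotic kinesins and 12 tubulins; the axis is drawn from -1.5 to 3.2. In WT the motor genes lie to the right of all genes at the median (0.18 against 0.00) and reach 100% at 0.67, the mitotic kinesins lie to the left (-0.17) and the tubulins far to the right (1.22).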

How the data were processed

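RNA-seq was analysed from 8 libraries, 2 in each of 4 groups. The authors prepared stranded libraries of polyadenylated RNA, sequenced them as paired ends and computed FPKM with Cuffdiff (version 1.05, build mm10, per the labels). The aligner behind this table is not given in the sources used here. The deposited table holds 1 FPKM per gene and group with a 95% interval and a status. It holds no values of single libraries, and 0 columns of samples were left unused. The column names show GEF-H1 for the knockout groups only, so the remaining columns were taken as WT. Of the knockout columns, those marked c were read as control and those marked s as stimulated, from these letters alone. Locus starts counted from 0, so 1 was added.

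Genes without an OK status in every group (107) were left out, and at least 1 FPKM in 1 group was required (11397 genes). Changes were log2 ratios of FPKM + 1, and a gene was called past 0.5. Intervals of changes were propagated by the delta method, which takes the groups as independent. No test was made, since a group is 1 value. The branch of the design for single libraries (limma) was not used. Depth is unknown, because FPKM keeps no fragment number. A step size of low values could not be read off clearly: 35 to 53 of 3020 to 3116 genes under 0.3 FPKM shared 1 ratio to the control WT group, at 0.185 to 0.21 on the log2 scale.

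Motor genes and lists were chosen with earlier results of these data known. Named with all 4 values were Kif5b, Kif3a, Dync1h1, Dctn1, Dynll1 and every motor gene past 0.5 or with intervals apart in a pairwise comparison (15 genes in all), Arhgef2, and partners past 0.5 with intervals apart under the compound. The genes with the highest and lowest change of each contrast list in WT were named too, some with fewer values. Dynlrb1, Kif13b and other genes given with values outside this rule were chosen after their values were seen. Words of 35 bases from GENCODE M21 transcripts were compared between genes, and promoters came from RefSeq (GRCm38.p6). The computation was tested on simulated data, with planted changes larger than those of the called motor genes and only in well-expressed genes. That test does not show how well the smaller changes given here would be recovered. Python 3.11.15, numpy 2.4.6, pandas 2.3.3 and matplotlib 3.10.9 were used. Alternatives were pseudocounts of 0.1 and 5 FPKM, rescaling to the median ratio, no filter, a filter of 5 FPKM, calls past 1 and calls where intervals were apart.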

Additional observations from a re-analysis of the deposited data

How the results depend on the processing

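With a pseudocount of 0.1 FPKM, 1 motor gene (Kif13b, lower) was called between the control groups and 1 (Klc2) for the difference between genotypes in the change, where the values with 1 FPKM were 0. With a pseudocount of 5 FPKM, the 7 calls in WT DCs became 4 (Kif1c, Dync1i2, Dync1li2 and Dctn2) and the 3 between the treated groups became 0. Calls past 1 gave 0 in WT DCs and 0 between the treated groups, and calls by intervals apart gave 3 in WT DCs. The pseudocount of 0.1 FPKM also gave 10 calls in WT DCs, 9 higher and 1 (Kifc3) lower, and 4 between the treated groups, 3 lower and 1 (Kif13a) higher, where none had gone that way, and it placed Kif3c (0.77) above Kif1c (0.70) in WT DCs. The other 28 counts, these included, stayed within 1.5 times, the 25 medians moved by less than 0.1 on the log2 scale, and of the 225 values of named motor genes 1 changed sign, that of Kif5b between the control groups, from -0.0104 to 0.000419 on rescaling. Rescaling, no filter and a filter of 5 FPKM left the 7 calls in WT DCs at 7. Leaving out a library could not be run, since the table holds no values of single libraries. No paired analysis was possible because the columns carry no replicate numbers. The median interval width of motor genes in control WT DCs was 43.0% of the FPKM, from 36.3% (Dync1i2) to 108% (Klc3). The median half-width of the log2 change in WT DCs was 0.40, so that the limit of 0.5 lies close to the error of a single gene.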
